A study of Bos taurus with 32 samples.

Results

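Adenosines with a methylation score in the RNA of immature bovine oocytes were followed from the mature metaphase II (MII) oocyte to the 4-cell embryo. The members were the adenosines whose deposited N6-methyladenosine (m6A) score in germinal vesicle (GV) oocytes, the stage before MII, was at least 0.1. They numbered 60417 of the 65535 adenosines in the table. The GV score alone chose them, so GV scores are given here only as a description. At MII and at the 4-cell stage a site is called where its score is at least 0.1, and a kept site is one called at MII and again at the 4-cell stage. The lowest GV score inside the rule was 0.10001 and the highest outside it 0.0999. Of the 1552 members with a GV score under 0.105, 22.9% were called at MII and 17.0% at the 4-cell stage. The 497 adenosines with a GV score above 0 and under 0.1 were called in 90.7% and 30.0%. They are no like-for-like edge, since a listed adenosine not called at GV had to be called at another stage.

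Per the labels, oocytes were aspirated from follicles of slaughterhouse ovaries and matured in vitro. Embryos came from such oocytes, fertilised in vitro with cryopreserved Holstein semen and cultured. No genotype, drug or other perturbation is named for any stage. Each stage had an input arm and a treated arm, in which m6A is tagged and then read as a mutation, with 2 libraries in each arm, hence 8 libraries for MII and 4-cell together. Every library started from 200 cells, and the labels do not say whether a blastomere or an embryo counts as a cell. The treated 4-cell libraries carry the word oocytes in their titles and embryo in their source. The authors deposited 1 score per adenosine and stage. No spread between replicates can therefore be computed, no test was run, and a difference is given as a difference between 2 scores or 2 shares. Depth is unknown. Fewer copies of a transcript, less RNA per cell, shallower sequencing and fewer methylated copies cannot be told apart, and a score of 0 can mean no methylation or no estimate.

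As background, m6A is the most common internal mark of messenger RNA. It is written by the METTL3 and METTL14 complex, mostly within the DRACH consensus (D is A, G or T, R is A or G, H is A, C or T, and the A before C is the methylated base), and is removed by ALKBH5 and FTO. Reader proteins bind it and alter the decay, splicing or translation of the transcript. Oocytes stop transcribing before maturation and live on stored maternal transcripts. In cattle the major wave of embryonic transcription comes after the 4-cell stage, so transcripts present from MII to that stage are taken to be largely maternal.

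Fewer of the members were called in the 4-cell embryo than in the MII oocyte, and most of those called in the embryo had also been called in the oocyte. Of the 60417 members, 20625 (34.1%) were called at MII and 13701 (22.7%) at the 4-cell stage, a ratio of 0.664. Both stages called 8938 sites, MII alone 11687, the 4-cell stage alone 4763 and neither 35029. Thus 43.3% of the MII-called sites were kept (95% Clopper-Pearson interval 42.7 to 44.0), while 12% of the members not called at MII were called at the 4-cell stage (11.7 to 12.3). Of the sites called in 4-cell embryos, 65.2% had been called at MII. These intervals cover counting error only, and sites of the same transcript depend on each other.

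Most sites that were not kept were listed at 0. Of the 11687 sites called at MII alone, 10915 (93.4%) were listed at 0 in the 4-cell column and 772 had a score between 0 and 0.1. Of the 4763 sites called at the 4-cell stage alone, 3896 (81.8%) were listed at 0 at MII. Whether a site was kept went with whether its neighbours in the same gene were kept, at short and long distances alike. Where the previous MII-called site of the same gene was kept and lay 1 to 20 nucleotides away, 58.0% of sites were kept, against 44.7% where it was not kept. The same shares were 59.1% and 44.3% at 21 to 100 nucleotides, 55.7% and 41.0% beyond that up to 500, and 48.4% and 36.1% at more than 500. The share kept also moved with the number of GV-called sites in the gene, from 14.0% in genes with 1 site to 23.0% with 2 to 4, 31.6% with 5 to 9, 41.9% with 10 to 19, 49.2% with 20 to 39 and 49.0% with 40 or more. Transcript abundance and depth are not in the table, and their part in these shares was not tested.

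At the sites called at both stages the scores of the 2 stages were close on the whole. The median score was 0.232 at MII and 0.229 in 4-cell embryos, and the median log2 ratio of the 4-cell to the MII score was -0.03 (95% interval of the median -0.05 to -0.02, quartiles -0.44 and 0.35). The 4-cell score was the higher one at 47.5% of the 8938 sites. It was at least 2-fold higher at 424 (4.74%) and at least 2-fold lower at 744 (8.32%).

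That near-zero median joined sequence contexts that differed. At DRACH sites the median log2 ratio was -0.27 (-0.29 to -0.24, 3573 shared sites), with the 4-cell score higher at 34.1% of them. At sites with another listed motif it was 0.09 (0.08 to 0.11, 4591 shared sites), and 58.0% were higher. A 4-cell score at least 2-fold below the MII score was listed at 16.5% of shared DRACH sites and at 1.90% of the others. Shared DRACH sites also had higher MII scores, with a median of 0.315 against 0.195 at other motifs. A site under 0.2 at MII cannot fall 2-fold and still be called. The lower DRACH ratio was also seen within transcripts. In 229 genes with at least 3 shared sites of each class, the DRACH median was the lower one in 181 and the higher one in 48, with a median difference of -0.33.

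Not every DRACH motif showed it, and the motifs that carry it are printed here as 5 bases with the scored A in the middle. At GGACT, the motif most often found methylated in mammals, the median score was 0.408 at MII and 0.263 at the 4-cell stage, with a median log2 ratio of -0.49. Only 19.4% of the 908 shared GGACT sites were higher in the embryo. The median log2 ratio was -0.60 at GGACA, -0.52 at TGACT, -0.33 at GGACC and -0.23 at AGACT. By contrast AGACC, also a DRACH motif, had 0.05, and TGACA had 0.26 over 89 shared sites, with a median interval of 0.00 to 0.45. GGACG, which is not DRACH, had -0.19, while AGACG had 0.03. Among the motifs with T after the A, AGATG had 0.14 and TGATG 0.15. GGACA scores were on a larger scale, with a median of 1.30 at MII and 0.823 in 4-cell embryos, and 975 MII-called GGACA sites held 578 distinct scores.

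**Figure D1:**
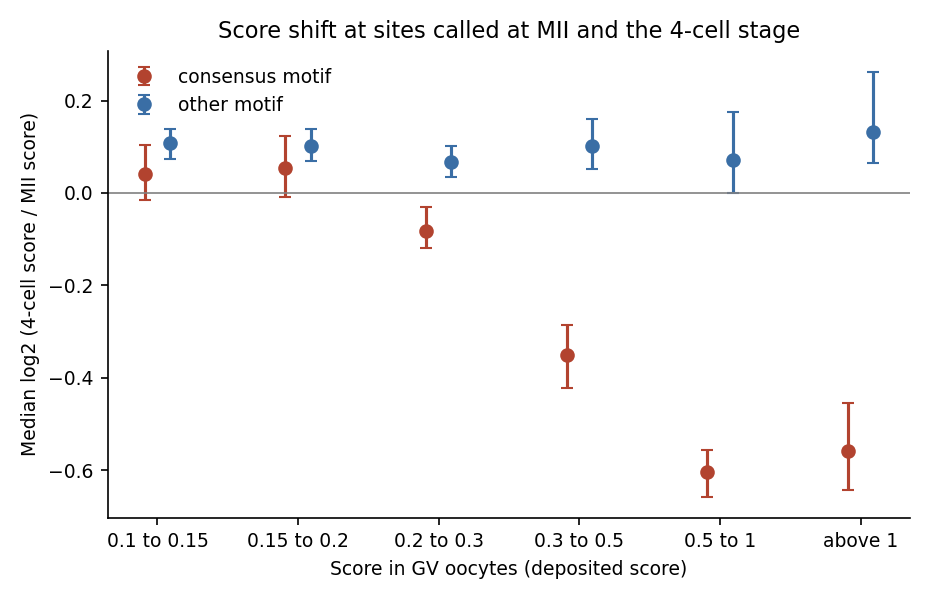
Median log2 ratio of the 4-cell to the MII score at GV-called sites called at both stages, on the vertical axis, by class of GV score, on the horizontal axis, for DRACH consensus sites and sites with another motif; bars are 95% intervals of the median over sites. The consensus medians lie near 0 in the lowest GV classes and at -0.60 for GV scores of 0.5 to 1, while the other motifs lie between 0.07 and 0.13 throughout.

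The medians are also given by class of GV score. That score chose the members, so the classes only describe them. For GV scores of 0.1 to 0.15 the median log2 ratio was 0.04 at DRACH and 0.11 at other motifs. It was -0.08 and 0.07 for scores of 0.2 to 0.3, -0.35 and 0.10 for 0.3 to 0.5, and -0.60 and 0.07 for 0.5 to 1. By class of MII score, the medians at DRACH and other motifs lay close at low scores. They were 0.30 and 0.33 for 0.1 to 0.15, and 0.05 and 0.10 for 0.15 to 0.2. For 0.2 to 0.3 they were -0.21 and -0.04, and for 0.3 to 0.5 -0.52 and -0.14. For 0.5 to 1 they were -0.68 and -0.06, and above 1 -0.62 and 0.09. A site close to 0.1 at MII cannot have a much lower 4-cell score and still be called, which limits how low the medians of the lowest classes can be. Over all scores, 42.9% of MII-called DRACH sites and 44.2% of MII-called sites with other motifs were kept. By class of MII score, the intervals of these shares lay apart only above 1. Of sites with an MII score of 0.5 to 1, 45.1% of DRACH (42.6 to 47.5) and 48.9% of others (44.1 to 53.8) were kept. Above 1 the shares were 43.8% (40.3 to 47.3) and 60.5% (55.4 to 65.3). Scores ran on different scales in different contexts, so a score class joins unlike motifs. Outside DRACH, the median MII score of shared sites was 1.29 with AAG in the middle, 3.00 with TAG and 4.99 with TAC. It was 0.175 with GAT. The MII-called sites of these contexts were kept in 59.9%, 51.7%, 71.7% and 44.2%. The part of context in the gap above 1 was not tested. The members called at the 4-cell stage and not at MII had all been called at GV, by the rule. DRACH made up 27.0% of these sites, near the 29.0% of the members called at neither stage. Of the members not called at MII, 11.6% of DRACH and 12.6% of other motifs were called at the 4-cell stage. DRACH made up 45.0% of the sites called at MII alone, 43.8% of those called at both and 34.2% of all members. These DRACH shares count only sites with a listed motif. Most members thus lay outside DRACH, and whether those sites are methylated was not tested.

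Scores of DRACH sites were also lower at MII than at GV. At the sites called at both stages the median log2 ratio of the MII to the GV score was -0.21 at DRACH and -0.07 at other motifs, and that of the 4-cell to the GV score was -0.46 and 0.03. The members were chosen by a high GV score, which by itself favours lower scores afterwards, so these ratios to GV are given only as a description. The 2-cell column called 4467 members. Over the 981 DRACH sites called at all of MII, 2-cell and 4-cell, the median log2 ratio was 0.08 from MII to 2-cell and -0.40 from 2-cell to 4-cell. Over the 1172 other sites it was 0.35 and -0.29. Of the sites called at MII and 4-cell, 26.6% were called at 2-cell. Requiring that call favours high 2-cell scores, so these ratios too are given only as a description.

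Among transcript regions, the 3′ untranslated region (3′UTR) kept a smaller share of its sites than coding sequence. Coding sequence held 38563 members, of which 13200 were called at MII and 9233 in 4-cell embryos. Of the MII-called ones, 44.8% (43.9 to 45.6) were kept. The 3′UTR held 12450, with 4562 called at MII and 2618 in 4-cell embryos, and 40.3% (38.9 to 41.8) were kept. The 5′UTR (1504 members) kept 43.0% (38.6 to 47.5) and introns (1778 members) 42.5% (38.2 to 46.9), intervals that include the 3′UTR share. In the 348 genes with at least 3 MII-called sites in each of coding sequence and 3′UTR, the share kept was smaller in the 3′UTR in 215, larger in 111 and equal in 22. Scores differed with motif and region together. The median log2 ratio was -0.40 at DRACH sites of the 3′UTR and -0.21 at those of coding sequence, against 0.08 and 0.10 at other motifs.

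Called sites were found at the GV stage in 6004 protein-coding genes with a symbol. Of these, 3757 had an MII-called site, 2818 a 4-cell-called site and 2601 both, while 1156 had calls in the oocyte alone and 217 in the embryo alone. Among the 1888 genes with at least 10 GV-called sites, 1375 had fewer called sites in the embryo, 247 as many and 266 more. In these genes 46.3% of the MII-called sites were kept. Over the 498 genes with at least 10 MII-called sites, the share kept ran from 0 to 100%, with a median of 54.5% and quartiles of 38.5% and 66.7%. At least 75% were kept in 70 of them and at most 10% in 18.

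**Figure D2:**
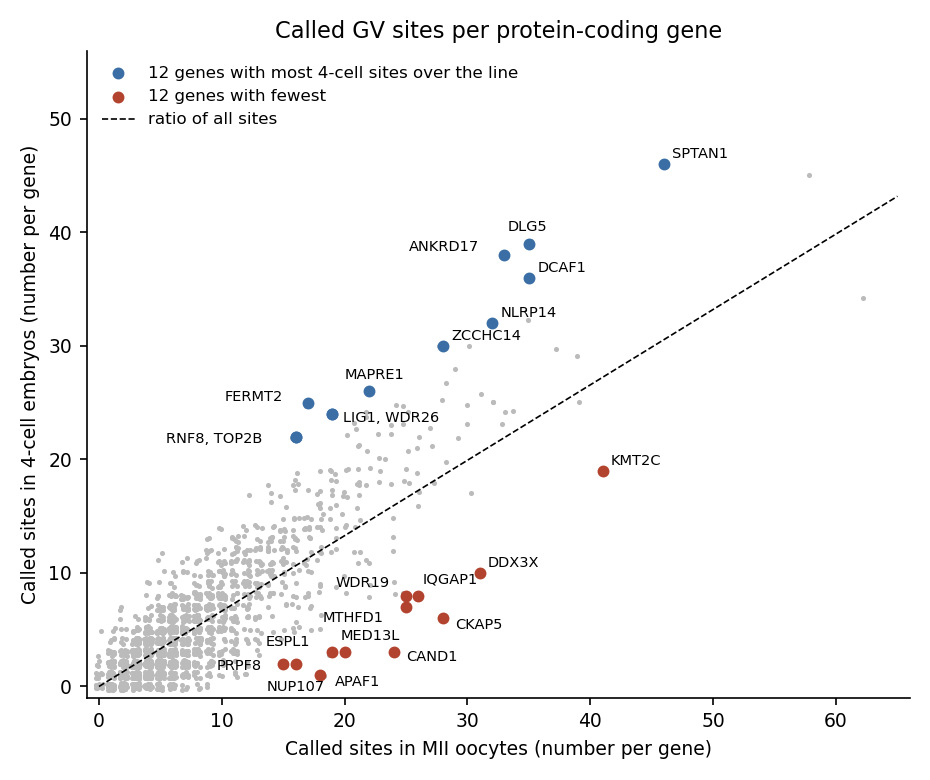
Number of GV-called sites called in MII oocytes (horizontal axis) and in 4-cell embryos (vertical axis), 1 point per protein-coding gene with at least 10 GV-called sites, grey points moved slightly at random so that they do not cover each other; the dashed line is the ratio of all sites, 0.664. Blue points mark the 12 genes farthest above the number of 4-cell sites that this ratio gives, such as SPTAN1 with 46 and 46, and red points the 12 farthest below it, such as CAND1 with 24 and 3.

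The 8 genes with the largest share kept were led by LIG1 and DPPA3. All 19 MII-called sites of LIG1, the DNA ligase that joins Okazaki fragments, were called in the embryo, where the gene had 24. All 10 of DPPA3 were also kept. DPPA3 guards DNA methylation of the maternal genome in the mouse zygote. Its MII scores ran from 0.124 to 0.205 and its 4-cell scores from 0.135 to 0.214, and 0 of its shared sites were DRACH. Kept sites numbered 15 of 16 in ACCSL, 11 of 12 in CCNB1 (cyclin B1, which drives entry into M phase), 11 of 12 in the small GTPase gene DIRAS2 and 11 of 12 in the splicing factor gene U2AF2. They numbered 10 of 11 in the translation helicase gene EIF4A1 and 10 of 11 in KPNA7, an importin of oocytes and early embryos.

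A second ranking took the number of 4-cell sites above that given by the overall ratio. At its top, ANKRD17, an ankyrin repeat protein, had 33 MII sites and 38 in the embryo, and the polarity scaffold DLG5 had 35 and 39. The spectrin SPTAN1 had 46 and 46, and the integrin activator FERMT2 had 17 and 25. Of the ubiquitin pathway genes among these 12, DCAF1, a substrate receptor of cullin ligases, had 35 and 36, WDR26, of the CTLH ligase, 19 and 24, and RNF8, a ligase of the DNA damage response, 16 and 22. MAPRE1, which binds growing microtubule ends, had 22 and 26. TOP2B, a DNA topoisomerase, had 16 and 22, ZCCHC14 had 28 and 30 and the oocyte gene NLRP14 had 32 and 32. The numbers hide exchange, as 25 of the 33 MII sites of ANKRD17 were kept and 12 of the 17 of FERMT2.

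At the other end of this ranking, CAND1, an exchange factor of cullin ligases, had 24 MII sites and 3 in the embryo, and all 21 of its sites that were not kept were listed at 0. The apoptosome gene APAF1 had 18 and 1. CKAP5, a microtubule polymerase of the spindle, had 28 and 6, and ESPL1, the separase that opens cohesin rings, had 19 and 3. The RNA helicase gene DDX3X had 31 and 10, with 4 sites kept and 26 of the other 27 listed at 0. The Mediator gene MED13L had 20 and 3, the histone methyltransferase gene KMT2C 41 and 19, the folate enzyme gene MTHFD1 25 and 7 and the scaffold gene IQGAP1 26 and 8. NUP107 of the nuclear pore had 16 and 2 and the ciliary transport gene WDR19 had 25 and 8. PRPF8, the core protein of the spliceosome, had 15 and 2 with 0 in common. A further 46 genes had at least 5 MII-called sites and none in the embryo, among them SRPK2 and TRAPPC8 with 9 each and POR and RELA with 8 each.

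Scores at kept sites also differed between genes. Of the 257 genes with at least 8 shared sites, 147 had a median log2 ratio below 0 and 109 above, from -0.95 to 0.51. The lowest was SSH2, a cofilin phosphatase, at -0.95 over 15 shared sites, 9 of them DRACH. ZBED4 had -0.76, the splicing factor gene PRPF18 -0.75, cytochrome b5 (CYB5A) -0.71 and NUFIP2 -0.71. The highest was KIDINS220 at 0.51 over 8 shared sites. CARM1, an arginine methyltransferase, had 0.38, DKC1, which makes pseudouridine, 0.36, the histone mRNA binding protein gene SLBP 0.35 and OSBPL9 0.30.

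At the score of 0.1, genes of oocyte function kept the largest shares among the lists of at least 10 genes, but not at a stricter score. The 19 genes with GV-called sites that act as maternal-effect factors or in the subcortical complex had 221 MII-called sites, of which 154 (69.7%, interval 63.2 to 75.7) were kept, against 43.3% of all. With a call at 0.2 the share was 49.4%, against 34.9% of all members, 55.4% in translation factor genes and 48.2% in mRNA decay genes. Sites per gene averaged 20.3 in this list, and all genes with 20 to 39 sites kept 49.2% at 0.1. NLRP9 kept 18 of 25, NLRP5, a core member of the subcortical complex in the mouse, 13 of 20, NLRP8 14 of 17 and PADI6 7 of 9. UHRF1, which guides maintenance DNA methylation, kept 12 of 18. TRIM28, a corepressor that protects imprints in the mouse, stood apart with 0 kept of 6. TLE6 kept 6 of 10. Without NLRP14, the member with most sites, 69.8% were kept. Yet 12 of the 19 genes had fewer called sites in the embryo, 5 as many and 2 more.

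Growth factors of the oocyte and proteins of its coat were similar. The 10 genes had 85 MII-called sites and kept 55 (64.7%, 53.6 to 74.8), and 48.6% with a call at 0.2. BMP15, which the oocyte secretes to its follicle cells, kept 20 of 24, and its partner GDF9 kept 10 of 16. ZP2 of the zona pellucida had 11 MII sites and 12 in the embryo, and ZP4 had 7 and 11. Sites within 1 transcript differed. Most of the shared BMP15 sites had nearby scores, as at the GGACT site of its 3′UTR at X:88810985, with 0.408 at MII and 0.472 at the 4-cell stage. Its GGACA site in coding sequence at X:88809955 had 6.14 at GV, 2.91 at MII and 0.758 in 4-cell embryos, and the one at X:88810097 had 6.74, 2.96 and 0.405. Positions are as deposited, and the genome build is not given in the sources used here.

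**Figure D3:**
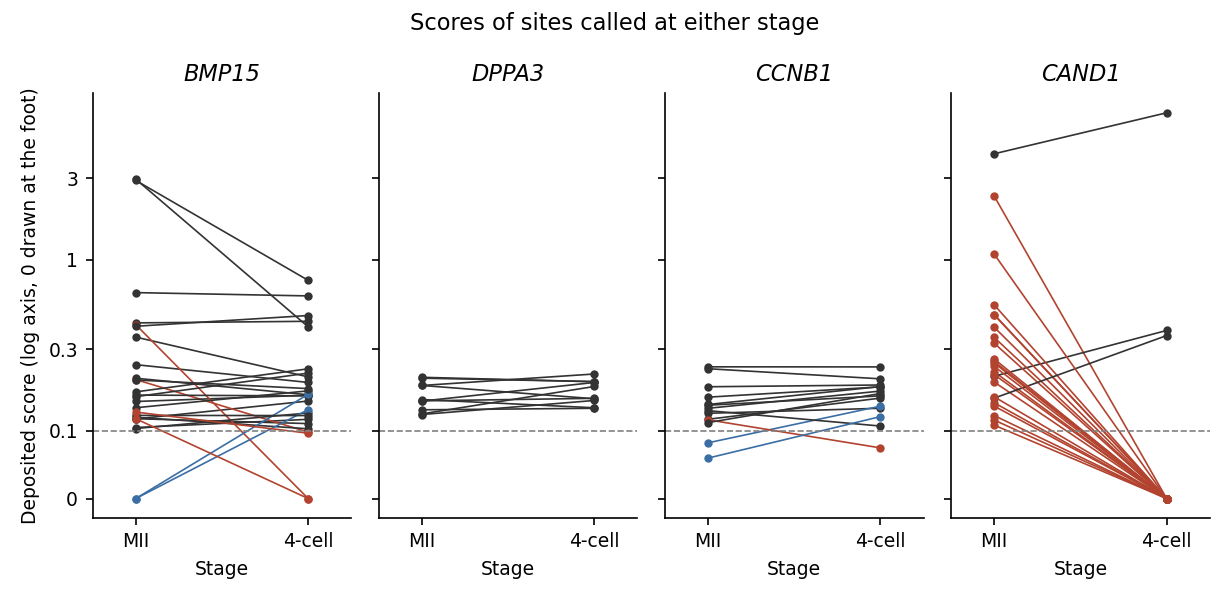
Scores of the GV-called sites of 4 genes called at MII or at the 4-cell stage, in MII oocytes and in 4-cell embryos, on a log axis with sites listed at 0 drawn at the bottom; each line is 1 site, black where called at both stages, red at MII alone and blue at the 4-cell stage alone, and the dashed line marks the score of 0.1 that calls a site. Most BMP15 lines stay above the dashed line, while 21 of the 24 MII-called CAND1 sites end at 0.

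Stored transcripts and the machinery that acts on them differed. The 34 genes of mRNA storage and translational control kept 97 of 173 sites (56.1%, 48.3 to 63.6), and 37.7% with a call at 0.2. Members included EIF4ENIF1, which holds capped transcripts silent, with 15 of 23, CPEB1, which binds the cytoplasmic polyadenylation element, with 11 of 14, and YBX1, a packaging protein, with 11 of 15. The 32 genes of mRNA decay kept 70 of 151 (46.4%). BTG4, an adaptor of maternal mRNA clearance in the mouse, kept 7 of 10, and the deadenylase gene CNOT6L kept 12 of 19, while the scaffold CNOT1 of the same complex kept 4 of 18. Translation factors kept 72 of 135 (53.3%) and chaperones 118 of 220 (53.6%), with 20 of 25 in DNAJB1.

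Cell cycle genes divided. Regulators of meiosis and M phase kept 129 of 261 sites (49.4%). WEE2, an oocyte kinase that holds CDK1 in check, kept 13 of 21, AURKA, a spindle pole kinase, 13 of 16, and CCNB3, a cyclin of meiosis, 16 of 31. CDC20, the activator of the anaphase-promoting complex, kept 2 of 9. Kinetochore and spindle genes kept 89 of 237 (37.6%), with 12 of 15 in TACC3 and 1 of 11 in the condensin gene NCAPG.

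Among genes of the nucleus, chromatin remodellers and corepressors kept 104 of 205 sites (50.7%), DNA methylation and histone modification genes 92 of 220 (41.8%) and splicing factors 98 of 232 (42.2%). RNA polymerase II and Mediator genes kept 61 of 167 (36.5%, 29.2 to 44.3), and 31.3% without LEO1. TAF4, a subunit of the general factor TFIID, kept 0 of 6 and the elongation factor gene SUPT5H 6 of 6. Nuclear pore genes kept 69 of 176 (39.2%), and 33.3% without NUP153. The 7 genes of genome activation and pluripotency kept 35 of 62 (56.5%, 43.3 to 69.0).

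Small shares were kept in genes of oxidative phosphorylation, with 14 of 62 kept (22.6%, 12.9 to 35.0), of the large mitochondrial ribosomal subunit, with 12 of 46 (26.1%), of the proteasome, with 19 of 65 (29.2%), and of the large cytosolic ribosomal subunit, with 26 of 75 (34.7%, 24.0 to 46.5). These transcripts also held few sites. Sites per gene averaged 3.89 in the first and 3.87 in the second, where all genes with 2 to 4 sites kept 23.0%. They averaged 7.94 in the third and 5.14 in the fourth, where all genes with 5 to 9 sites kept 31.6%. Taken over genes called at both stages alone, the 4 lists kept 41.2%, 42.9%, 32.2% and 63.4%, and all sites in such genes 48.1%. That filter requires a 4-cell call in the gene, which by itself raises the share kept, most of all where a gene holds few sites. These shares are therefore given only as a description. Genes of the cortical cytoskeleton, with 37.3 sites per gene, kept 221 of 433 (51.0%). In all, 15 of the 26 lists with sites kept more than the 43.3% of all members.

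**Figure D4:**
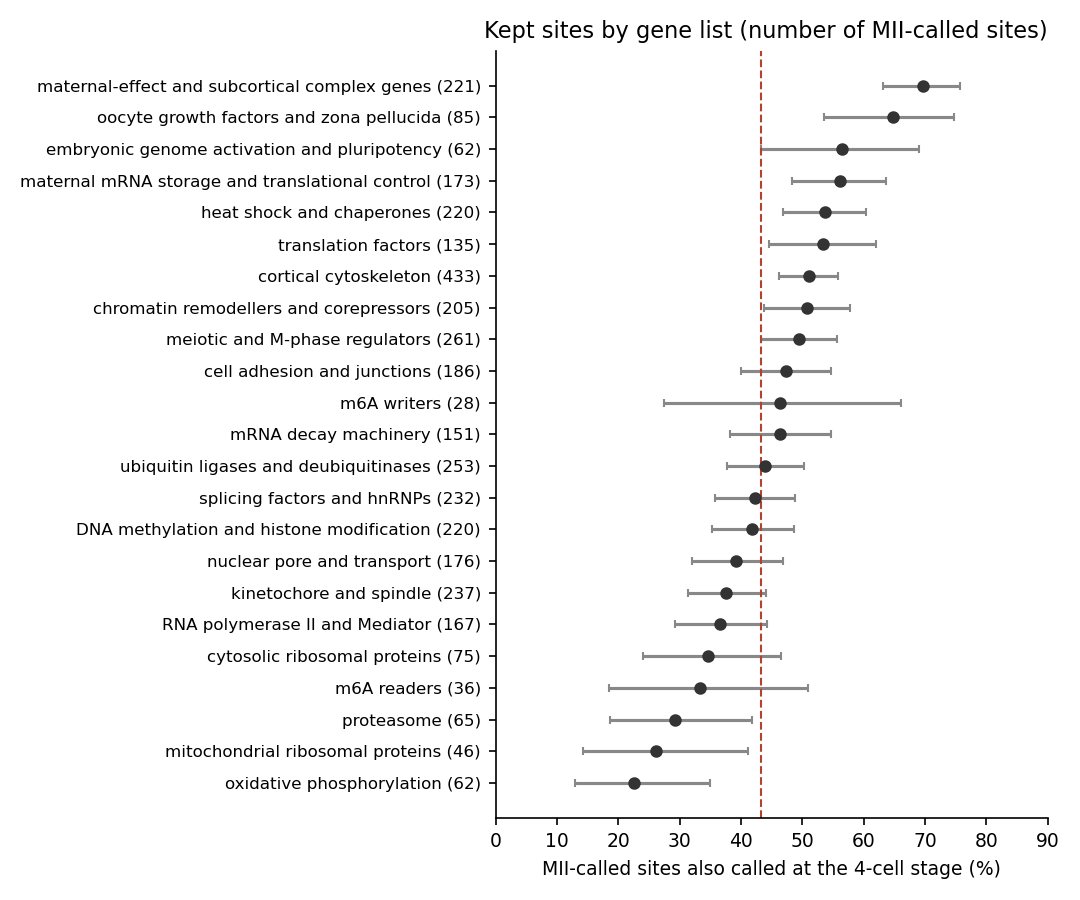
Percentage of MII-called sites that were also called at the 4-cell stage, by gene list, with 95% Clopper-Pearson intervals over sites; the dashed line is the 43.3% of all members. Maternal-effect genes lie at 69.7% and oxidative phosphorylation genes at 22.6%, and the intervals cover counting error only.

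Of the m6A machinery itself, ALKBH5, the demethylase, had 10 MII sites and 14 in the embryo, with 8 kept. Its 3′UTR GGACT site at 19:34422506 had a score of 0.391 at MII and 0.172 at the 4-cell stage, while the GGACT site at 19:34423796 had 0.240 and 0.233. The 8 writer genes kept 13 of 28 (46.4%) and the 9 reader genes 12 of 36 (33.3%, and 11.8% over DRACH sites alone). RBM15B, an adaptor of the writer complex, kept 6 of 10, WTAP, its regulatory subunit, 2 of 5, the reader gene YTHDF1 0 of 6 and IGF2BP3 8 of 21. Without the gene with most sites the shares were 38.9% for writers and 26.7% for readers.

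Among DRACH sites, the single sites with the most extreme ratios were GGACA sites. The 5 lowest and 5 highest log2 ratios at shared DRACH sites with a known region in protein-coding genes all had this motif. GGACA scores ran on a larger scale, with a median MII score of 1.30 at shared sites against 0.408 at GGACT. A shared site needs at least 0.1 at both stages, which leaves DRACH motifs with lower scores less room for such ratios. Sites with other motifs were not part of this ranking. A coding site of TSC22D2 at 1:117717320 had 2.93 at MII and 0.138 at the 4-cell stage (log2 ratio -4.40), and HIC2, SNRK, TFE3 and ABL1 followed. A 3′UTR site of FBXO10 at 8:61635032 had 0.162 and 1.11 (2.77), next to OAT, TBC1D8, PER1 and LIG1. Among GGACT sites, a set looked at after the first was seen, the lowest was in the 3′UTR of JOSD1 at 5:110319330, with 0.932 and 0.158 (-2.56).

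Sites called at both stages were also the ones called most often in the other stages. In 2-cell embryos 26.6% of them were called, against 7.17% of the sites called at MII alone, 9.36% of those called at the 4-cell stage alone and 2.29% of those called at neither. At the 8-cell stage the shares were 33.7%, 9.14%, 12.3% and 2.76%. In blastocysts, after embryonic transcription has begun, they were 16.7%, 10.2%, 8.48% and 4.34%. Sites called at MII alone thus stood above those called at the 4-cell stage alone there and below them at the 8-cell stage. They already stood above them at the 16-cell stage (7.49% and 6.11%) and in morulae (6.10% and 4.66%). CAND1 shows the first kind: of its 24 MII-called sites, the GGACT site at 5:46501803 had 0.544 at MII, 0 at the 2-cell, 4-cell, 8-cell and 16-cell stages, and 0.997 in blastocysts.

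**Figure D5:**
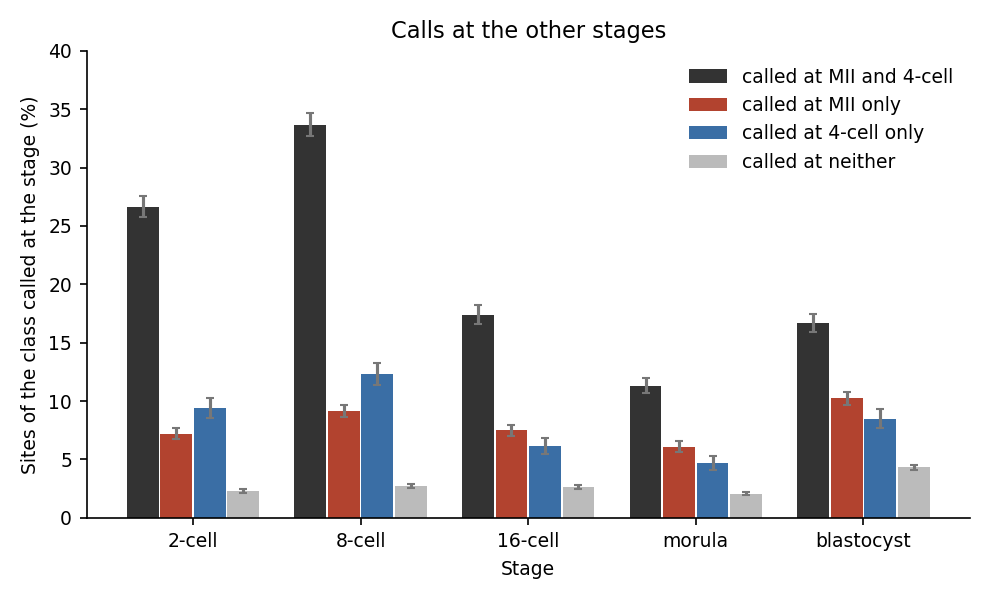
Percentage of GV-called sites called at 5 other stages, by whether a site was called at both MII and the 4-cell stage, at MII alone, at the 4-cell stage alone or at neither; bars are 95% Clopper-Pearson intervals. Sites called at both are highest at each stage, with 33.7% at the 8-cell stage.

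The labelled material was checked against markers. Of 14 oocyte genes, 12 had GV-called sites, with 133 called at MII and 121 at the 4-cell stage. Of 12 cumulus and granulosa genes, 3 had any, with 12 and 9 called, and 0 of 8 sperm genes did. Of 7 trophectoderm genes 2 did, with 14 and 10. A site needs a methylated and sequenced transcript, so a gene without sites is not shown to be absent, and the part of other cells in the results was not tested.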

How the data were processed

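m6A-SAC-seq libraries of 8 stages were described in the labels, of which GV, MII and 4-cell are compared here. The authors deposited 1 score per adenosine and stage with its gene, region and motif. Per the submitters' processing notes, the tools included STAR 2.5.3a and Trimmomatic 0.39. Not given in the sources used here were the site caller, the scale of the score, the build and how libraries were combined. The table keeps a listed adenosine only where some stage reaches 0.1. Oocytes came from follicles of 3 to 5 mm and were matured for 22 to 23 h, and fertilisation took 18 h.

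Sites with a GV score of at least 0.1 were taken and called at MII and the 4-cell stage at the same score. Genes are protein-coding ones with a symbol. Named were the 12 genes at each end by 4-cell sites minus the number given by the overall ratio. Also named were 6 at each end by median log2 ratio (at least 8 shared sites) and 8 by share kept (at least 10 MII-called sites). Single sites were the 5 at each end by log2 ratio among shared DRACH sites with a known region. List members were picked as examples with their values in view. Some genes that these rules name are left out of the text. The members and the 27 lists were chosen with earlier results of these data known. A list of sperm genes had no member with a site. Shares have 95% Clopper-Pearson intervals and medians order-statistic intervals. Alternatives were other score minimums, a GV score of at least 0.2, DRACH motifs, protein-coding genes, genes called at both stages, no ribosomal protein genes and lists without their largest gene. Calculations were tested on simulated data. Python 3.11.15, pandas 2.3.3, numpy 2.4.6, scipy 1.17.1 and matplotlib 3.10.9 were used.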

Additional observations from a re-analysis of the deposited data

Results flagged for a closer look

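A signal lay outside the rule that chose the members. Of the 5118 listed adenosines with a GV score under 0.1, 683 were called at the 4-cell stage. MII called 4804 of them and 647 were called at both stages, so 13.5% of the MII-called ones were kept, against 43.3% of the members. The median log2 ratio at the 647 was 0.06. Of the 5118, 428 lay in large-subunit ribosomal protein genes, and 47 of these were called at the 4-cell stage. The table holds only some of the adenosines first called after GV, so these shares describe the listed ones.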

How the results depend on the processing

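The 4-cell stage called fewer members than MII, and DRACH medians stayed below 0 and those of other motifs above 0, under every alternative run. With a call at 0.2 or more, MII called 20.004% and the 4-cell stage 12.8%, and 34.9% were kept (33.9% of DRACH, 36.3% of other). Of the members not called at MII, 7.29% were called at the 4-cell stage. The median log2 ratio was -0.0938 (-0.31 at DRACH, 0.0747 at other). At 0.15 or more the shares were 26.8%, 17.8%, 38.5% (37.7% and 39.6%) and 10.2%, with a median of -0.0616. With any score above 0 they were 38.9%, 25.6%, 47.4% (46.9% and 48.7%) and 11.6%. With a GV score of at least 0.2 they were 37.6%, 23.2%, 45.6% (48.5% of other) and 9.81%, with medians of -0.13 and, at DRACH, -0.38. DRACH motifs alone gave 45.3%, 25.8% and, of the members not called at MII, 11.6%, with a median of -0.27. Protein-coding genes alone gave 34.6% and 23.1%. Genes called at both stages, a filter that uses the 4-cell call itself, gave 39.6%, 28.8% and 48.1% kept (48.6% of DRACH, 47.9% of other). Of their members not called at MII, 16.2% were called at the 4-cell stage. Without GGACA, an alternative chosen after seeing the data, the DRACH median was -0.24 and 43.5% were kept. Among the headline values, 37 stayed within their interval (counts within 1.5 times) and 41 did not. Among values of single lists, regions and genes, 440 stayed and 167 did not. Leaving out the ribosomal protein genes at the head of the table moved none of the shares above beyond its interval.

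Leaving out a replicate could not be run, because each stage has 1 column. No paired analysis was possible because the columns carry no replicate number. Depth per stage is unknown, and a stage with less sequencing would list more sites at 0.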
